A study of Mus musculus with 17 samples.

Results

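The complement genes described here are C1qa, C1qb, C1qc, C2, C3, C4b, Cfb, Serping1 and C5ar1, which were given as a list of names, with no threshold on a measured value. These 9 genes, of 35971 in the files, were all found, and all 9 passed the filter on low counts that left 17011 genes for the tests. Their RNA was measured in whole kidneys of 17 mice in 5 groups, all of which carried the lsl-PRCC-TFE3 knockin (KI) allele at Rosa26, a fusion gene of TFE3 renal cell carcinoma that stays silent until Cre recombinase removes a stop cassette. KSP-Cre, driven by the Cadherin 16 promoter, is active in kidney epithelium, so blood, stromal and vascular cells keep the unrecombined alleles. The Cre(-) group held 4 mice without the recombinase, of which replicates 1 and 2 carried HIF1af/f and replicates 3 and 4 had no floxed allele. The PRCC-TFE3 KI group held 3 Cre-positive mice without a floxed allele. The other Cre-positive mice were 4 Hif1α KO mice with HIF1af/f, 3 Hif2α KO mice with HIF2af/f and 3 Hif1α/Hif2α double knockout (DKO) mice with both floxed alleles. The labels give no age, and nothing in them joins 2 libraries to 1 mouse.

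Complement is a cascade of plasma and tissue proteins that tags surfaces and draws in leukocytes. C1q, with its proteases, starts the classical pathway on antibody or damaged cells, C4 and C2 form the enzyme that cleaves C3, and factor B forms the C3-cleaving enzyme of the alternative pathway. Liver makes most of the plasma pool of many components, macrophages are the main source of C1q, and tubule cells of the kidney are known to make C3 and factor B locally.

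Library totals ranged from 16504419 to 24668827 counts, and 3 counts, taken as the smallest amount a library can show, equalled 0.122 to 0.182 CPM, a count scaled to the depth of its library. This floor is for counting error alone. Hif1a was at 102.0 to 128 CPM in Cre(-) kidneys and at 163 to 256 CPM in the Cre-positive groups, with 163 to 198 CPM in Hif1α KO kidneys, and Epas1, which encodes Hif2α, was at 136 to 149 CPM in Hif2α KO and 173 to 192 CPM in KI kidneys. A count over the whole gene does not show whether the floxed exons were lost. The tissue label was met by markers of the proximal tubule, whose summed abundance was 5268 to 5796 TPM (an abundance scaled for transcript length and library total) in Cre(-) kidneys and 397 to 521 TPM in KI kidneys. One library stood apart: KI replicate 2 held 543 TPM of adipocyte markers, against 16.7 and 36.5 TPM in the other KI kidneys. The library numbers largely follow the groups, so the order of the libraries cannot be told apart from genotype. In bulk RNA, fewer cells of a type and less RNA per cell cannot be told apart either.

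The 9 genes lie in 5 places of the mouse build GRCm38, all on the minus strand. The C1q chains sit side by side on chromosome 4, with C1qa at 136895917 to 136898803, C1qb at 136880129 to 136886187 and C1qc at 136889804 to 136893065. C2 (34862604 to 34898265), Cfb (34856374 to 34862518) and C4b (34728380 to 34743882) lie in the major histocompatibility region of chromosome 17, and C3 lies on the same chromosome at 57203970 to 57228136. Serping1 is on chromosome 2 at 84765387 to 84775444 and C5ar1 on chromosome 7 at 16246743 to 16259540. Reads of some members can be split with neighbours: a further gene model of the same strand, Gm20547, covers exons of both C2 and Cfb, and shares 37.0% of the 75-base windows of C2 and 69.9% of those of Cfb. C4b shares 22.7% of its windows with its paralog C4a, which was not analysed here, and the other 6 members share none. The values of C2, Cfb and C4b are therefore uncertain in how reads were assigned.

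RefSeq start-site windows of GRCm38.p6, from 250 bases before to 50 bases after the start, were at hand for 4 members and are shown because C1qb and C1qc were the pair of members most alike across libraries, while C3 and C5ar1 are the central component and a receptor of the cascade. Capitals mark a motif match, and each window is read 5′ to 3′ on the minus strand, from chr4:136886151-136886450 (C1qb), chr4:136892865-136893164 (C1qc), chr17:57228087-57228386 (C3) and chr7:16259289-16259588 (C5ar1).
C1qb: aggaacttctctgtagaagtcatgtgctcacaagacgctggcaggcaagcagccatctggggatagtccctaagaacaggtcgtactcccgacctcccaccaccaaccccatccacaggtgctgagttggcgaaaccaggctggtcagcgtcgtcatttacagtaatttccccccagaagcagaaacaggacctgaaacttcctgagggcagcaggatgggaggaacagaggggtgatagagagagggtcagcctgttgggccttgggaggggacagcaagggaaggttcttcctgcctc
C1qc: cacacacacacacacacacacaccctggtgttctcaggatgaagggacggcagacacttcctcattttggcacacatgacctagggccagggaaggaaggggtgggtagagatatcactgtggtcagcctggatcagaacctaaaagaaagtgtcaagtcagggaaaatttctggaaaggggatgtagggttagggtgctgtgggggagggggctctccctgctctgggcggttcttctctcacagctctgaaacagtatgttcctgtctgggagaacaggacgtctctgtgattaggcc
C3: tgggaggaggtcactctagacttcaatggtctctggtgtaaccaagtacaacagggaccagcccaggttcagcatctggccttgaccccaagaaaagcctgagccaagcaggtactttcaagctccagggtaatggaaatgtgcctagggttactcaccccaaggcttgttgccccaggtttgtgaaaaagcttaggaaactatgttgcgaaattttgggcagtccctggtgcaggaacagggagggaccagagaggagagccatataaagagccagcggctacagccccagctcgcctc
C5ar1: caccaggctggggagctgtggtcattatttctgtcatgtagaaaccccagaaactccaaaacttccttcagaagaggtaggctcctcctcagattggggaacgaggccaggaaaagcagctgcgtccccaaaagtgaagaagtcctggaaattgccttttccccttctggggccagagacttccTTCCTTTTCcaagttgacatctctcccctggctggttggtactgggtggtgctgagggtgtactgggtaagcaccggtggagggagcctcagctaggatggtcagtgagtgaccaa
Motifs were searched on both strands. They were the M-box bound by TFE3 and its relatives (TCACGTGA, TCACATGA, TCATGTGA or TCATATGA), the hypoxia response core ACGTG, which lies within the first of those M-boxes, the interferon response core GAAANNGAA, the STAT core TTCNNNGAA and the NF-kB-like GGNNTTTCC. Of all 32851 windows in the table, 2.26% held an M-box, 19.6% ACGTG, 8.56% GAAANNGAA, 8.3% TTCNNNGAA and 5.82% GGNNTTTCC. The only match in the 4 windows was TTCCTTTTC in C5ar1, which is GAAANNGAA on the other strand, at position -66 from the start. No match means only that these letters are not in this window. C1qa, C2, C4b, Cfb and Serping1 had no window in the table.

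The first comparison, KI against Cre(-), asks what followed the expression of PRCC-TFE3 in kidney epithelium. Every KI mouse carried KSP-Cre and no Cre(-) mouse did, so the fusion and Cre itself cannot be told apart. Of the 9 members, 8 rose and 1, Cfb, fell by the quasi-likelihood test of edgeR (p-values adjusted by Benjamini-Hochberg), in which 31.6% of all 17011 genes rose and 29.3% fell. For each of the 9 the KI and Cre(-) kidneys did not overlap, but the share of all genes without overlap was not counted. C4b and C3 had the changes of the greatest size, and Cfb moved against the rest. The plot of values by mouse shows all 9 genes.

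**Figure D1:**
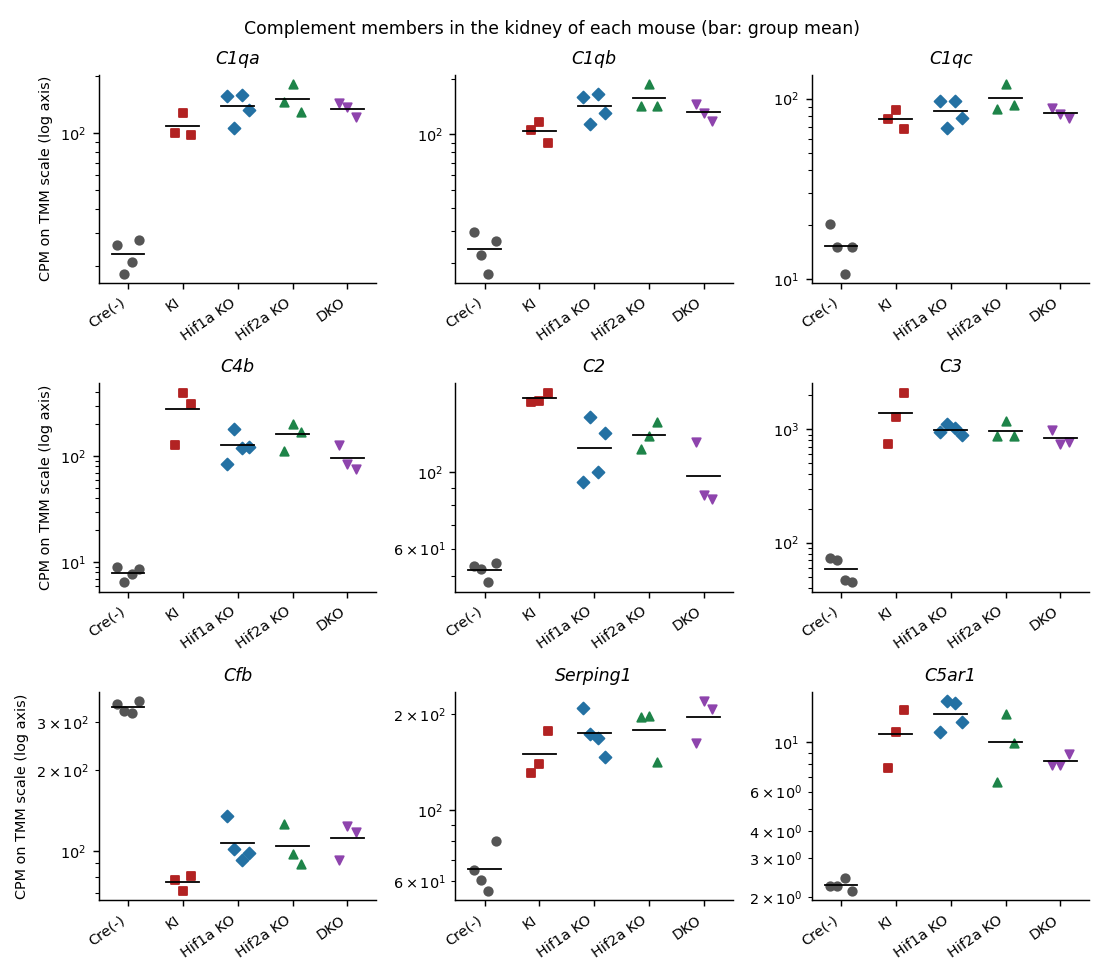
Each panel plots 1 complement gene, with 1 point per mouse and a bar at the group mean, in CPM on TMM-scaled library sizes (log axis), for the 5 genotype groups. In all panels the 4 Cre(-) kidneys lie apart from the 13 Cre-positive kidneys, above them for Cfb and below them for the other 8 genes.

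C1qa, C1qb and C1qc encode the 3 chains of C1q, the recognition unit of the classical pathway. C1qa was at 25.8, 18.3, 21.2 and 27.5 CPM in the Cre(-) kidneys and at 101, 127 and 97.5 CPM in the KI kidneys. C1qb was at 29.4, 22.1, 17.5 and 26.2 CPM and at 105, 117 and 89.1 CPM in the same groups. C1qc was at 20.1, 15, 10.7 and 15.1 CPM and at 77, 86.8 and 67.6 CPM. Every KI kidney was above every Cre(-) kidney for all 3 chains, and KI replicate 3 was the lowest of the KI kidneys each time. The log2 fold change was 2.23 ± 0.17 (SE) for C1qa, with an adjusted p of 3.56e-08 in edgeR's quasi-likelihood test. It was 2.13 ± 0.17 (SE) for C1qb (adjusted p = 7.62e-08) and 2.34 ± 0.18 (SE) for C1qc (adjusted p = 3.59e-08). The 3 rises, of 4.68-fold, 4.36-fold and 5.06-fold, were within their errors of each other. On the TPM scale, which allows levels of different genes to be set side by side, the ratio of C1qa to C1qb was 1.05 ± 0.0945 (SD, n = 17), and it ranged from 0.871 to 1.27. The ratio of C1qa to C1qc was 1.81 ± 0.225 (SD, n = 17). Both ratios pool all groups. By group, the ratio of C1qa to C1qc ranged from 1.42 to 2.29 in Cre(-) and from 1.52 to 1.71 in KI kidneys. It was 1.79 to 1.97 in Hif1α KO, 1.63 to 1.93 in Hif2α KO and 1.81 to 1.95 in DKO kidneys.

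C4b encodes complement component 4, which is cleaved by C1s and joins C2. C4b was at 8.98, 6.48, 7.68 and 8.52 CPM in the Cre(-) kidneys and at 129, 399 and 312 CPM in the KI kidneys. The KI kidneys spread widely, with replicate 1 well under the other two, yet even replicate 1 was far above the Cre(-) kidneys. The log2 fold change of 5.15 ± 0.38 (SE), or 35.4-fold, was the greatest among the 9 members (adjusted p = 2.45e-08). With C3, it was the member whose KI kidneys varied most relative to their mean on the TPM scale, with 119.5 ± 53.9 TPM (SD, n = 3), against 2.95 ± 0.373 TPM (SD, n = 4) without Cre. The main coding transcript of C4b had a mean of 1.43 TPM in Cre(-) and 73.8 TPM in KI kidneys. That value comes from the same assignment of reads, so it does not settle how reads were split with C4a.

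C2 encodes the serine protease that pairs with C4b in the C3-cleaving enzyme. C2 was at 53.5, 52.5, 48 and 54.7 CPM in the Cre(-) kidneys and at 159, 160.4 and 169 CPM in the KI kidneys. Both groups were tight and lay far apart. C2 rose by 1.64 ± 0.15 (SE) on the log2 scale, which is 3.12-fold (adjusted p = 1.84e-07).

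C3 encodes the central component, on which all pathways meet. C3 was at 73.4, 70.5, 47 and 44.8 CPM in the Cre(-) kidneys and at 747, 1293 and 2115 CPM in the KI kidneys. The KI kidneys differed among themselves by more than those of any other group, and the 2 Cre(-) mice with HIF1af/f were above the 2 without. The log2 fold change was 4.55 ± 0.30 (SE), or 23.5-fold (adjusted p = 7.96e-09). C3 was called against either pair of Cre(-) mice alone. In TPM, C3 went from sixth of the 9 members in Cre(-) kidneys, at 25.2 ± 6.22 TPM (SD, n = 4), to first in KI kidneys, at 862 ± 372 TPM (SD, n = 3). Its main coding transcript held 31.8% to 55.3% of the gene's TPM, and had a mean of 11.5 TPM in Cre(-) and 360.2 TPM in KI kidneys.

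Cfb encodes factor B, the protease of the alternative pathway and the close relative and neighbour of C2. Cfb was at 351, 331, 326 and 360.1 CPM in the Cre(-) kidneys and at 78.3, 71.3 and 80.8 CPM in the KI kidneys. No other member was lower in KI kidneys. Cfb fell by 2.15 ± 0.15 (SE) on the log2 scale, which is 4.45-fold lower (adjusted p = 1.62e-08 in edgeR's quasi-likelihood test). The TPM ratio of C2 to Cfb was 0.137 in Cre(-) kidneys (0.13 to 0.144 over 4 mice) and 1.69 in KI kidneys (1.63 to 1.83 over 3 mice). C2 and Cfb can each exchange reads with Gm20547, which was at 0, 16.5, 0 and 3.03 CPM in Cre(-) and 2.41, 0 and 9.81 CPM in KI kidneys. The counts of C2, Cfb and Gm20547 were also summed, and the sum had a log2 fold change of -0.71 ± 0.07 (SE, adjusted p = 8.38e-07 in edgeR's test). The main coding transcript of Cfb had a mean of 89.5 TPM in Cre(-) and 29.1 TPM in KI kidneys, by the same assignment of reads, so it does not settle their exchange with Gm20547.

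Serping1 encodes C1 inhibitor, which blocks the proteases of C1 and of the lectin pathway. Serping1 was at 64.9, 60.3, 56 and 80.2 CPM in the Cre(-) kidneys and at 131, 140.0 and 177 CPM in the KI kidneys. Its rise of 1.19 ± 0.16 (SE) on the log2 scale, or 2.29-fold (adjusted p = 1.34e-05), was the least of the 8 that rose.

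C5ar1 encodes the receptor on leukocytes for the C5a fragment. C5ar1 was at 2.26, 2.25, 2.45 and 2.15 CPM in the Cre(-) kidneys and at 7.65, 11.2 and 14 CPM in the KI kidneys. It was the member of lowest level in each group on the TPM scale, and replicate 1 was the lowest KI kidney, as for C4b and C3. The log2 fold change was 2.26 ± 0.23 (SE), or 4.8-fold (adjusted p = 6.70e-07).

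All 9 calls of KI against Cre(-) were also made by each alternative test and with each library left out. The median log2 fold change of all genes was 0.03 on the TMM scale and 0.38 on the log2(TPM + 1) scale, so that a change in TPM holds a shift that all genes share. The share of calls that were higher was 51.9% on the first scale and 78.2% on the second, and each member kept its direction on both.

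**Figure D2:**
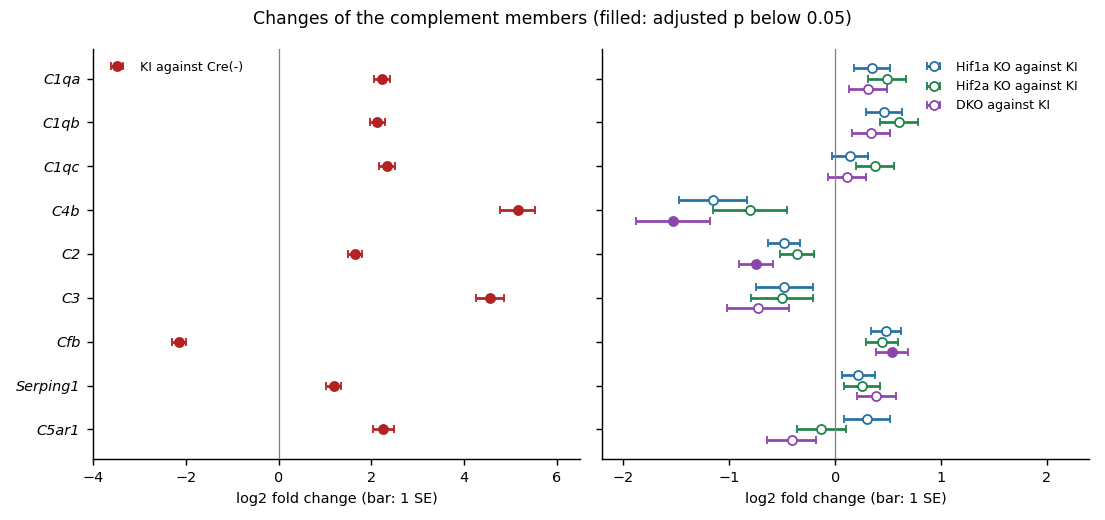
Points give the log2 fold change of each complement gene from edgeR and bars 1 SE, for KI against Cre(-) on the left and each knockout group against KI on the right (the axes differ), with filled points where the adjusted p was below 0.05. All 9 points are filled on the left, and on the right only C4b, C2 and Cfb in DKO kidneys.

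The order of levels within a group changed with Cre. In Cre(-) kidneys Cfb was first at 245 ± 17.8 TPM (SD, n = 4), followed by Serping1 at 42.2 ± 5.53 TPM and C2 at 33.5 ± 1 TPM, with no overlap between these neighbours. C1qa (26.1 ± 3.43 TPM), C1qb (25.6 ± 4.73 TPM), C3 and C1qc (14.8 ± 3.41 TPM) followed, each within the range of the next. C4b and C5ar1 (1.04 ± 0.091 TPM) were last. In KI kidneys C3 stood alone at the top, and C1qa (171 ± 31.7 TPM, SD, n = 3), C1qb (156 ± 28.4 TPM), C2 (136 ± 5.16 TPM), Serping1 (133 ± 14 TPM), C4b, C1qc (104 ± 17.7 TPM) and Cfb (80.3 ± 6.65 TPM) followed, each overlapping the next. C5ar1 was last at 6.83 ± 1.68 TPM. C3 was also first and C5ar1 last in the Hif1α KO, Hif2α KO and DKO kidneys, where the mean of C3 was 629, 692 and 585 TPM. In those 3 groups C4b was eighth, below C2, in place of sixth in KI kidneys. These orders use TPM summed over all transcripts of a gene. By the main transcript alone, C2 was at 15.9 TPM in Cre(-) kidneys, below C1qa (26.1 TPM) and C1qb (25.6 TPM). In KI kidneys C2 was then at 75.9 TPM, below Serping1 (132.5 TPM) and C1qc (103 TPM). Cfb stayed first in Cre(-) (89.5 TPM) and C3 first in KI kidneys (360 TPM). In Hif2α KO kidneys Cfb (40.6 TPM) was then below C4b (43.9 TPM).

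The next comparisons ask whether loss of Hif1α, of Hif2α or of both in the same epithelium moved these genes in KI kidneys. They share the KI libraries, so a KI kidney that is high or low moves all 3. Against KI, no member passed the test in Hif1α KO kidneys, none passed in Hif2α KO kidneys and 3 passed in DKO kidneys, where C2 and C4b fell and Cfb rose. The background of all genes in edgeR's test was 2.57% higher and 2.86% lower for Hif1α KO, 0.741% higher and 0.647% lower for Hif2α KO, and 6.53% higher and 6.19% lower for DKO. An unadjusted p under 0.05 was reached by 5 members in Hif1α KO and by 5 in Hif2α KO kidneys. The share of all genes at that unadjusted p was not counted, so these counts have no background. DESeq2 called 3 members in the Hif1α KO kidneys (C2, C4b and Cfb), 1 in the Hif2α KO kidneys (C1qb) and the same 3 as edgeR in the DKO kidneys. Its background was larger than that of edgeR, with 1665, 1015 and 2905 of all 17011 genes called in Hif1α KO, Hif2α KO and DKO kidneys.

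C4b had the largest differences. It was at 84.3, 180.5, 118 and 123 CPM with Hif1α KO, 112, 199.9 and 169 CPM with Hif2α KO and 129, 84.9 and 76.4 CPM with both (DKO). The highest DKO kidney, at 128.6 CPM, was just under the lowest KI kidney, at 128.9 CPM, and the single knockouts overlapped the KI range. Against KI the log2 difference was -1.15 ± 0.32 (SE) with Hif1α KO (adjusted p = 0.0505 in edgeR's quasi-likelihood test) and -0.80 ± 0.35 (SE) with Hif2α KO (adjusted p = 0.226). In DKO kidneys C4b fell by 1.53 ± 0.35 (SE), with an adjusted p of 0.0131. Single libraries decided these calls: without KI replicate 1, C4b passed in all 3 comparisons, and the DKO call was lost without KI replicate 2, DKO replicate 2 or DKO replicate 3, with adjusted p of 0.0517, 0.0636 and 0.0635.

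C2 was at 93.4, 144, 99.9 and 129.6 CPM with Hif1α KO, 116, 127 and 139 CPM with Hif2α KO and 122, 85.9 and 83.4 CPM with both (DKO). All 10 knockout kidneys were below the 3 KI kidneys and above the 4 Cre(-) kidneys. The log2 difference against KI was -0.48 ± 0.15 (SE) with Hif1α KO (adjusted p = 0.0675) and -0.36 ± 0.16 (SE) with Hif2α KO (adjusted p = 0.234). In DKO kidneys C2 fell by 0.75 ± 0.16 (SE), with an adjusted p of 0.00907 in edgeR's quasi-likelihood test. That call was lost without DKO replicate 2 (adjusted p = 0.0502), and C2 passed in Hif1α KO kidneys without Hif1α KO replicate 2 (adjusted p = 0.0248).

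Cfb was at 135, 102, 92.3 and 98.4 CPM with Hif1α KO, 126, 97.4 and 89.4 CPM with Hif2α KO and 92.5, 124 and 118 CPM with both (DKO). All 10 were above the KI kidneys and far below the Cre(-) kidneys. The log2 difference against KI was 0.48 ± 0.14 (SE) with Hif1α KO (adjusted p = 0.0623) and 0.44 ± 0.15 (SE) with Hif2α KO (adjusted p = 0.131). In DKO kidneys Cfb rose by 0.54 ± 0.15 (SE), with an adjusted p of 0.0308 in edgeR's test, and this call held in 1 of the 6 fits that left out a library, the one without DKO replicate 1. The summed counts of C2, Cfb and Gm20547 differed from KI by -0.04, -0.03 and -0.17 on the log2 scale in the 3 groups, none past the threshold. The shared windows of C2 (1501) and of Cfb (2174) were with Gm20547 alone, not with each other. Such a sum cannot tell opposite changes of C2 and Cfb from reads that each exchanged with Gm20547. Gm20547 was at 0 to 9.81 CPM in KI and 2.19 to 11.0 CPM in DKO kidneys.

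C3 was at 941, 1124, 1018 and 890.5 CPM with Hif1α KO, 871, 1181 and 877 CPM with Hif2α KO and 988, 742 and 777 CPM with both (DKO). These 10 kidneys lay closer together than the 3 KI kidneys, of which replicate 1 was under all but 1 of them. The log2 difference against KI was -0.48 ± 0.27 (SE), -0.50 ± 0.29 (SE) and -0.73 ± 0.29 (SE) in the 3 groups, with adjusted p of 0.312, 0.353 and 0.106. Without KI replicate 1, C3 passed in the DKO kidneys at -1.03 (adjusted p = 0.0151).

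C1qa was at 156, 106, 159 and 132 CPM with Hif1α KO, 146, 181 and 129 CPM with Hif2α KO and 143, 138 and 122 CPM with both (DKO). C1qb was at 159, 114, 166 and 131 CPM, 143, 187 and 142 CPM and 147, 130.1 and 118 CPM in the same order of groups. C1qc was at 97.1, 69, 96.4 and 78 CPM, 87.8, 121 and 92.4 CPM and 88.7, 82.5 and 78.5 CPM. In Hif2α KO kidneys all 3 chains lay above the KI range without overlap, but the share of all genes without overlap was not counted. The log2 differences of the chains against KI were 0.49 ± 0.18 (SE), 0.60 ± 0.18 (SE) and 0.38 ± 0.18 (SE), and none passed (adjusted p = 0.153, 0.0984 and 0.273 in edgeR's test). In the Hif1α KO kidneys the differences were 0.35, 0.46 and 0.14 (SE 0.17 for each), and in DKO kidneys 0.31, 0.34 and 0.11 (SE 0.18 for each). All of these differences were above 0, in comparisons that share the KI libraries, and C1qc had the smallest in each group.

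Serping1 was at 209, 174, 168 and 147 CPM with Hif1α KO, 195, 198 and 141 CPM with Hif2α KO and 162, 219.5 and 207 CPM with both (DKO). These overlapped the KI kidneys, with log2 differences of 0.22 ± 0.16 (SE), 0.25 ± 0.17 (SE) and 0.39 ± 0.18 (SE) (adjusted p = 0.467, 0.453 and 0.15). C5ar1 was at 11.1, 15.4, 15 and 12.3 CPM with Hif1α KO, 6.65, 13.5 and 9.92 CPM with Hif2α KO and 7.89, 7.96 and 8.88 CPM with both (DKO). It overlapped the KI kidneys in each group, with log2 differences of 0.30 ± 0.22 (SE), -0.13 ± 0.23 (SE) and -0.41 ± 0.23 (SE) (adjusted p = 0.456, 0.807 and 0.261). The sign in Hif2α KO kidneys was not stable, since it was 0.10 without Hif2α KO replicate 1 and 0.09 without KI replicate 3.

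Against Cre(-), the knockout groups shared the 4 control libraries with the first comparison. In each, 8 members rose and Cfb fell, beside a background of 31.9% higher and 30.1% lower for Hif1α KO, 32.0% and 29.9% for Hif2α KO, and 30.4% and 27.9% for DKO. C4b was higher than in Cre(-) kidneys by 4.0, 4.34 and 3.61 on the log2 scale in Hif1α KO, Hif2α KO and DKO kidneys. C3 was higher by 4.08, 4.05 and 3.83. C2 was higher by 1.16, 1.29 and 0.89, and Cfb had differences of -1.68, -1.71 and -1.62. None of the knockouts thus brought a member back into the Cre(-) range, and the smallest rise that passed was that of C2 in DKO kidneys (1.86-fold, adjusted p = 9.69e-05 in edgeR's test).

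The knockout groups were also compared with each other. No member passed between Hif1α KO and Hif2α KO (background 0.429%), between DKO and Hif1α KO (0.406%) or between DKO and Hif2α KO (0.00588%). At an unadjusted p under 0.05 the members were none, C5ar1 and C2 in that order. The share of all genes at that unadjusted p was not counted, here and for the interaction below. C5ar1 was lower in every DKO kidney than in every Hif1α KO kidney, by -0.71 ± 0.22 (SE) on the log2 scale (adjusted p = 0.175), and C2 differed between DKO and Hif2α KO by -0.39 ± 0.16 (SE) (adjusted p = 0.882). The interaction asks whether the change with Hif1α loss differed between kidneys with and without Hif2α. It passed for no gene in edgeR (a background of 0%) and for 31 genes, none of them a member, in DESeq2. C1qa and C1qb had an unadjusted p under 0.05, with interaction values of -0.53 ± 0.24 (SE) and -0.71 ± 0.25 (SE) on the log2 scale (adjusted p = 0.831 and 0.766). For C1qb the log2 difference with Hif1α loss was 0.46 in kidneys with Hif2α and -0.26 in kidneys without it, and these values were not shown to differ.

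How the members varied among mice of 1 group was described with the deviations of log2 CPM from the group mean, over 17 libraries in 5 groups, which share the library and its scaling. Over the 36 pairs of members the median Pearson r was 0.08, from -0.59 to 0.96, and 13 pairs were below 0. The C1q chains went together, with r of 0.96 (Spearman's rho 0.96) for C1qb and C1qc, 0.83 (0.84) for C1qa and C1qb, and 0.71 (0.75) for C1qa and C1qc. Without the 2 farthest libraries these were 0.95, 0.78 and 0.62. With the other members the values were nearer 0, as C1qb had r of 0.09 with C3, 0.08 with C4b and -0.04 with Cfb. C4b had r of 0.70 (0.56) with C5ar1 and 0.61 (0.49) with C3, which was 0.64 and 0.38 without the 2 farthest libraries. Cfb went with Serping1 (r 0.74, rho 0.76, and 0.71 without 2 libraries) and against C2 (-0.59, -0.50 and -0.52) and C4b (-0.55, -0.58 and -0.65).

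**Figure D3:**
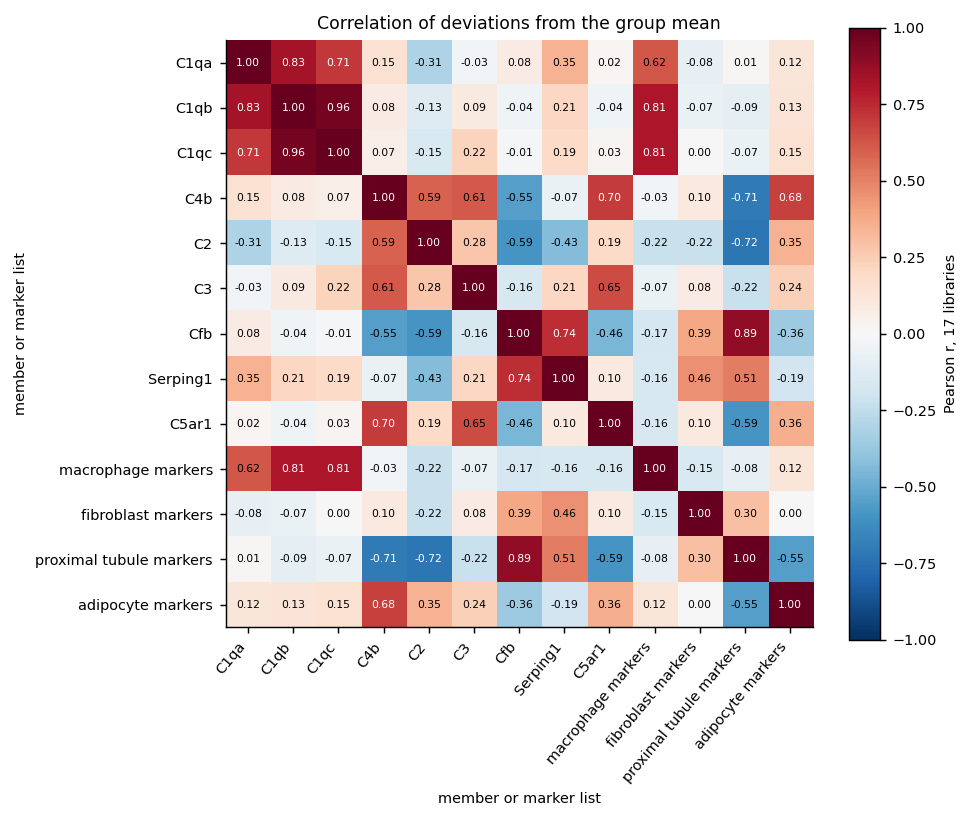
Each cell gives the Pearson r, over 17 libraries with group means removed, between 2 complement genes or between a gene and the summed TPM of a marker list (color from -1 to 1). The 3 C1q chains and the macrophage markers form a block of 0.62 to 0.96, and Cfb with the proximal tubule markers reaches 0.89.

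Among all 17011 genes tested, Rgs10 (r 0.85, rho 0.88) and Csf3r (0.85, 0.84) were among the 3 whose deviations were most like C1qa, and they stayed at 0.86 and 0.82 without the 2 farthest libraries. For C3 the 3 most alike were Tma7-ps (0.89, 0.80), Il4ra (0.89, 0.76) and Psen2 (0.88, 0.90), which were 0.70, 0.68 and 0.84 without 2 libraries. For C4b they were Tnr (0.92, 0.95), Mctp2 (0.85, 0.85) and Crisp1 (0.85, 0.87), which were 0.93, 0.78 and 0.91. Tnr, which encodes the matrix protein tenascin-R, was at 0.137, 0.0535, 0.0662 and 0.0631 CPM in Cre(-) and 6.27, 16.8 and 13.7 CPM in KI kidneys. Its Cre(-) values were 2, 1, 1 and 1 counts, under the floor of 3 counts. These correlations are the top of many ranked values and carry no test.

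Markers of cell types moved with the members. Their counts stand beside a background of 31.6% of all genes higher and 29.3% lower in KI against Cre(-). Against KI the background was 2.57% and 2.86% in Hif1α KO, 0.741% and 0.647% in Hif2α KO, and 6.53% and 6.19% in DKO kidneys. Sums in TPM also hold the shift that all genes share on that scale. The summed TPM of 12 macrophage markers, such as Adgre1 and Csf1r, was 80.2 to 104 in Cre(-) and 213 to 324 in KI kidneys, and 304 to 404, 392 to 480.5 and 381 to 439.8 in Hif1α KO, Hif2α KO and DKO kidneys. Of these 12, 11 rose in KI against Cre(-), and against KI 3 rose in Hif1α KO, none in Hif2α KO, and 3 rose and 1 fell in DKO kidneys. None of the 12 was at 0 in any library. Within groups the macrophage sum had r of 0.62, 0.81 and 0.81 with C1qa, C1qb and C1qc, and of -0.07, -0.03 and -0.16 with C3, C4b and C5ar1. The part of macrophage number in the C1q values was not tested.

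The summed TPM of 6 proximal tubule markers, such as Lrp2 and Slc34a1, was lower in KI than in Cre(-) kidneys as given above, and was 751 to 1456, 567 to 1268 and 832 to 1472 TPM in Hif1α KO, Hif2α KO and DKO kidneys. All 6 fell in KI against Cre(-), and against KI 3 rose in Hif1α KO, none in Hif2α KO and 4 in DKO kidneys. Within groups this sum had r of 0.89 with Cfb (rho 0.83, and 0.78 without the 2 farthest libraries), -0.72 with C2 (-0.68 and -0.63) and -0.71 with C4b (-0.80 and -0.82). Of 5 markers of other tubule segments all fell in KI kidneys, from 3514 to 4321 to 1065 to 1653 TPM in sum. Against KI, 3 of these 5 rose in Hif1α KO, 1 in Hif2α KO and 5 in DKO kidneys, where the sums were 2019.6 to 3465, 1995 to 2986 and 2651 to 3783 TPM. The part of the tubule cells in the values of Cfb, C2 and C4b was not tested.

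**Figure D4:**
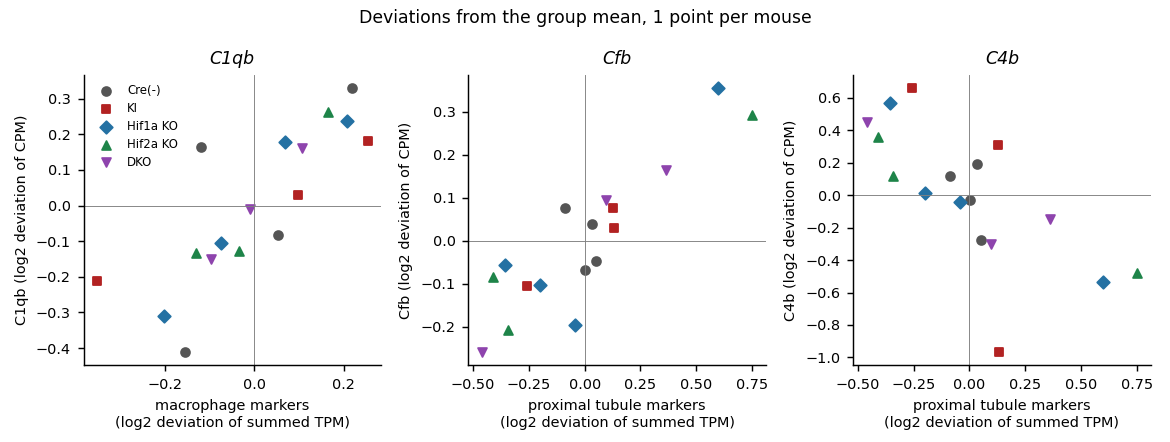
Each point is 1 mouse, plotted as the log2 deviation from its group mean of a marker sum in TPM (horizontal) and of a complement gene in CPM (vertical), for C1qb with macrophage markers and for Cfb and C4b with proximal tubule markers. C1qb and Cfb slope upward (r 0.81 and 0.89) and C4b downward (r -0.71).

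Other lists moved as well, and their sums in TPM hold the shift that all genes share on that scale. On the TMM scale the median log2 fold change in KI against Cre(-) was 0.87 for the fibroblast and -0.55 for the endothelial markers. Fibroblast markers summed to 60.9 to 72.2 TPM in Cre(-) and 210.1 to 244 TPM in KI kidneys, and 4 of 6 rose. Against KI, 2 of these 6 rose in Hif1α KO, 2 in Hif2α KO and 4 in DKO kidneys, at sums of 231 to 275, 267 to 292 and 250.2 to 397 TPM. Neutrophil markers summed to 2.7 to 5.59 and 8.42 to 10.8 TPM, with 5 of 8 tested, of which 2 rose and 1 fell, and S100a8, Retnlg, Ly6g and Ngp were at 0 in at least 1 library. Hepatocyte markers, a check for liver RNA, summed to 48.9 to 62.6 and 48 to 76.3 TPM, and of 7 markers 1 rose and 2 fell. Endothelial markers summed to 116 to 179.7 and 142 to 147 TPM, with 3 of 5 lower, B and plasma cell markers to 16 to 40.7 and 25.5 to 116 TPM, with 3 of 5 higher, and T cell markers to 4.32 to 6.59 and 4.59 to 27.1 TPM, with 1 of 5 higher. Adipocyte markers summed to 3 to 23.1 TPM and 16.7 to 543 TPM, with 3 of 5 higher, and their r with C4b within groups was 0.68. Against KI, 1 B and plasma cell and 1 T cell marker rose in DKO kidneys, and of the hepatocyte markers 1 rose in Hif1α KO, 2 fell in Hif2α KO, and 1 rose and 2 fell in DKO kidneys. With KI replicate 2 left out, all 9 members still passed in KI against Cre(-). The part of these cells in the members' values was not tested.

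The members were set beside the rest of the pathway, a list of 57 complement genes by role, of which 44 were tested. In KI against Cre(-), 26 rose, 10 fell and 8 did not pass, with a median log2 fold change of 1.02, against 0.03 over all genes tested. Of all genes tested, 31.6% rose and 29.3% fell, and the counts by role are to be read beside these shares. Of the 35 tested genes of the list that are no members, 18 rose and 9 fell, with a median of 0.59. The classical pathway had 7 of 8 tested genes higher and none lower, and the receptors 7 of 8 higher and 1 lower. The lectin pathway had 2 of 6 higher and 2 lower, the C3 and alternative pathway 3 of 4 higher and 1 lower, the terminal pathway 2 of 4 higher and 2 lower, the soluble regulators 3 of 7 higher and 1 lower, and the membrane regulators 2 of 7 higher and 3 lower. Of the called genes, Cr2 alone, a complement receptor of B cells (log2 fold change -1.36), took the other sign on the TPM scale.

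**Figure D5:**
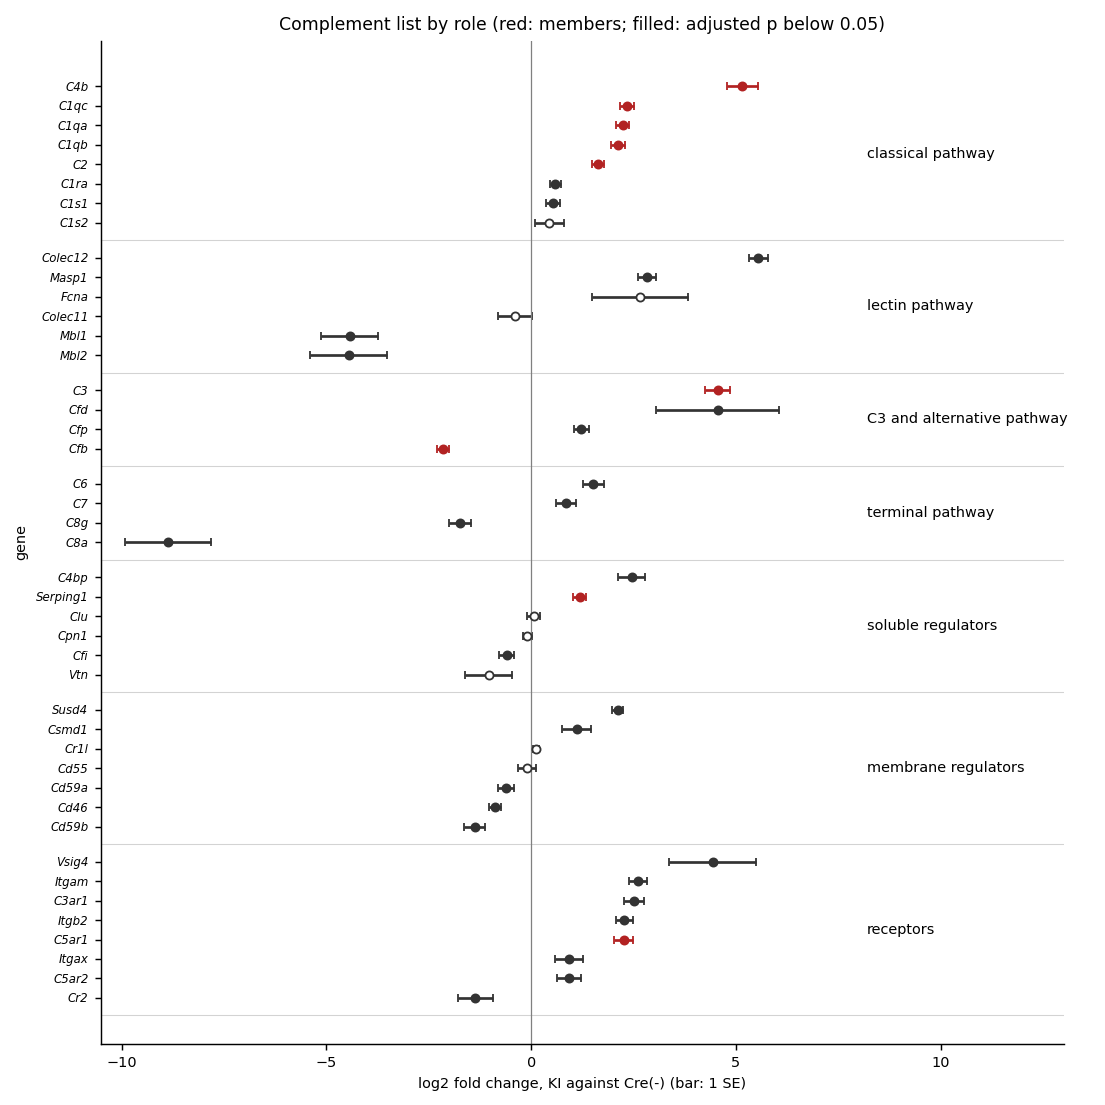
Points give the log2 fold change of KI against Cre(-) and bars 1 SE for 43 of the 44 tested genes of the complement list, grouped by role, with the 9 members in red and filled points where the adjusted p was below 0.05. Values run from -8.87 for C8a to 5.55 for Colec12.

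The proteases that act beside C1q changed less than its chains. C1ra, the first protease of C1, was at 24.3, 18.2, 24.2 and 29.2 CPM in Cre(-) and 34.9, 36.8 and 36.5 CPM in KI kidneys, a rise of 0.59 ± 0.13 (SE) (adjusted p = 0.00121 in edgeR's test). C1s1, the protease that cleaves C4 and C2, was at 36.1, 29.7, 34.9 and 39.1 and 41.6, 48.1 and 62.5 CPM, a rise of 0.54 ± 0.17 (SE) (adjusted p = 0.0105) that was lost without KI replicate 3 (0.36, adjusted p = 0.0817). For both the 3 KI kidneys lay above the 4 Cre(-) kidneys, by less than the C1q chains.

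In the lectin and alternative pathways single genes moved widely. Colec12, a scavenger receptor of the collectin family, was at 35, 35.9, 39.7 and 45.8 CPM in Cre(-) and 1540.0, 1665 and 2286 CPM in KI kidneys (log2 fold change 5.55 ± 0.24 (SE)). It was the only gene of the list that fell against KI in all 3 knockouts, to 545, 985, 690.5 and 948 CPM with Hif1α KO, 811, 954 and 989 CPM with Hif2α KO and 911, 564 and 616 CPM in DKO kidneys (log2 -1.21, -1.0 and -1.39, adjusted p = 0.00781, 0.0464 and 0.00266), and the Hif2α KO call was lost in 9 of 14 alternatives. Mbl2, a mannose-binding lectin, was near the limit of detection, with 86 counts over the Cre(-) and 3 over the KI kidneys, a Cre(-) to KI ratio of 23.9 (95% exact interval 7.9 to 118, counting error only). All 3 of those counts were in KI replicate 1, and without it Mbl2 was at least 16.1-fold higher in Cre(-) kidneys, against a floor of 3 counts over the other KI kidneys. Cfd, the protease that cleaves factor B and a gene of fat cells, was at 65.1, 2.84, 2.71 and 9.79 CPM and 28.3, 1279 and 93.5 CPM, so that the groups overlapped, and KI replicate 2, which also held the most adipocyte marker RNA, was far above the rest. Its log2 fold change was 4.55 ± 1.51 (SE) (adjusted p = 0.0164), and 3 of 17 alternatives lost the call. That value rested on single libraries, as it was 1.62 (adjusted p = 0.334) without KI replicate 2 and 6.52 without Cre(-) replicate 1. Cfp, or properdin, which stabilizes the alternative enzyme, was at 6.92, 5.41, 5.63 and 5.81 CPM and 8.97, 18.6 and 13.9 CPM, a rise of 1.22 ± 0.18 (SE).

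The terminal pathway, which builds the membrane attack complex, held the widest change of the list. C8a, the alpha chain of C8, was at 102, 112, 109 and 108 CPM in Cre(-) and 0.115, 0.485 and 0.0571 CPM in KI kidneys. The summed counts were 6938 and 12, a Cre(-) to KI ratio of 482 (95% exact interval 276 to 933, counting error only). Of the 12 counts, 9 were in KI replicate 2, and without it the ratio was 1258 (430.2 to 6101). In DKO kidneys C8a was at 2.05, 7.43 and 3.86 CPM, above the KI kidneys, and it rose against KI with an adjusted p of 0.033, a call that 6 of 14 alternatives lost, while DESeq2 gave no adjusted p. It was lost in 5 of the 6 fits that left out a library and held in the one without DKO replicate 1. C8g, its partner chain, was at 7.82, 8.57, 6.09 and 6.69 CPM in Cre(-) and 2.76, 1.67 and 2.17 CPM in KI kidneys (log2 fold change -1.73 ± 0.27 (SE)).

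Regulators and receptors moved in both directions. C4bp, the binding protein that helps inactivate C4b, was at 0.274, 0.75, 0.794 and 0.758 CPM in Cre(-) and 4.71, 3.99 and 2.05 CPM in KI kidneys (log2 fold change 2.45 ± 0.33 (SE)). Every KI kidney was above the Cre(-) range for C4bp. Susd4, a membrane regulator, was at 8.5, 7.92, 9.86 and 11.2 and 39.8, 38.7 and 42.5 CPM, a rise of 2.11 ± 0.14 (SE). Cd59b, a brake on the membrane attack complex, was at 5.14, 4.55, 4.7 and 5.56 and 1.44, 1.72 and 2.57 CPM (log2 fold change -1.38 ± 0.26 (SE)). Itgam, a chain of complement receptor 3 on myeloid cells, was at 5.9, 2.68, 3.84 and 3.72 and 18.7, 29.7 and 25.2 CPM, a rise of 2.62 ± 0.22 (SE). Vsig4, a C3b receptor of resident macrophages, was rare, with 4 counts over the Cre(-) and 79 over the KI kidneys or 0.23, 2.15 and 2 CPM by mouse, which is a ratio of 23.7 (95% exact interval 8.9 to 89.2, counting error only).

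Against KI, few genes of the list passed in the single knockouts. Of all genes tested, 2.57% rose and 2.86% fell in Hif1α KO, 0.741% and 0.647% in Hif2α KO, and 6.53% and 6.19% in DKO kidneys. In the Hif1α KO kidneys 1 of 44 rose (Cfi, the protease factor I) and 2 fell (Colec12 and Cpn1, a carboxypeptidase that trims the anaphylatoxins), with a median of 0.21 over the list and 0.00 over all genes. In the Hif2α KO kidneys none rose and 1 fell (Colec12), with a median of 0.19. In the DKO kidneys 7 rose and 7 fell, with a median of 0.19 and both members and other genes on either side. Those that rose were C1ra, Mbl1, Cfb, C8a, Cfi, Clu and Itgax, and those that fell were C2, C4b, Colec12, Masp1, Cpn1, Susd4 and Vsig4. With a library left out, from 1 to 8 rose and from 2 to 8 fell. Cfi, Cpn1, Mbl1, Clu, Itgax and Masp1 are named only as parts of these counts, after their values were seen.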

How the data were processed

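Kidney RNA was sequenced from TruSeq Stranded mRNA libraries on a NextSeq 500 with single-end reads of 75 nt. Per the labels and the methods, reads were trimmed with Trim Galore 0.6.6 and cutadapt 2.5, aligned with STAR 2.7.9a and quantified with RSEM. The methods name the human assembly hg38 for alignment and hg38 or GRCm38 for annotation, whereas the files list mouse transcripts, so GRCm38 was used for positions. The authors deposited the expected count of each transcript per library, an estimate without scaling for depth. TPM per transcript were deposited as well, normalized for transcript length and library total.

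Of 119353 transcripts, 116770 (97.8%) were matched to GENCODE M21 and held 99.04% to 99.24% of the counts of each library. Expected counts and TPM were summed per gene, and the sums of counts rounded to whole numbers. No 2 libraries were identical. Groups were compared with edgeR 4.0.16 (R 4.3.3): the quasi-likelihood test, TMM factors, a minimum count of 10 in filterByExpr, and 1 fit of all 17 libraries. P-values were adjusted by Benjamini-Hochberg over 17011 genes with a threshold of 0.05. The p-values test a group difference against the spread between mice, which was estimated jointly over all groups. CPM are on TMM-scaled library sizes, log2 CPM for deviations used a prior count of 2, and the windows shared between genes were all 75-base stretches of their transcripts. Promoter sequences are RefSeq's for GRCm38.p6. Python 3.11.15, pandas 2.3.3 and matplotlib 3.10.9 made the tables and figures.

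The members and gene lists were chosen with earlier results of these data known. The text names the 9 members in every comparison, up to 2 other genes per role of the list with the largest called change, and the 3 genes most like C1qa, C3 and C4b. Of the genes so chosen, 2 are not reported here. Alternative settings were DESeq2 1.42.0, its size factors in edgeR, no filter, the replicate number as a block, limma 3.58.1 on log2(TPM + 1) and log2(TPM + 0.1), only the groups compared, either pair of Cre(-) mice, and each library left out. The scripts were tested on simulated counts.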

Additional observations from a re-analysis of the deposited data

Results flagged for a closer look

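In groups of 4 mice, 66 values of genes and marker sums were checked for a mouse far from the other 3 by Dixon's ratio at its 95% critical value, and 4 were past it, where chance gives about 1 in 20 groups. None was a value of the 9 members. Cfd, the alternative pathway protease, was at 65.1 CPM in Cre(-) replicate 1 against 2.71 to 9.79 CPM in the other Cre(-) kidneys, and at 183 CPM in Hif1α KO replicate 2 against 12.1 to 34.9 CPM in the other Hif1α KO kidneys. C4bp was at 0.274 CPM in Cre(-) replicate 1 against 0.75 to 0.794 CPM in the others, which is 4 counts against 12 to 14. The hepatocyte markers summed to 45.01 TPM in Hif1α KO replicate 2 against 52.8 to 53.7 TPM in the others.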

How the results depend on the processing

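In KI against Cre(-), and in each knockout group against Cre(-), all 9 members passed under every alternative run and with every library left out. Over the log2 fold changes of the members, other settings left 554 of 562 values on the same side with the same direction, 5 newly passed and 3 no longer did, and with a library left out 416 of 432 did so, 5 newly passed, 9 were lost and 2 turned direction (C5ar1 in Hif2α KO against KI, which ranged from -0.40 to 0.10 over these fits, with 0.10 without Hif2α KO replicate 1 and 0.09 without KI replicate 3). The number of members called rose from 0 to 3 with DESeq2 and to 1 with DESeq2's size factors in Hif1α KO against KI, and to 1 with DESeq2 in Hif2α KO against KI. Over all genes, the calls went from 925 to 1665 with DESeq2 and to 959 with its size factors in Hif1α KO against KI. In Hif2α KO against KI they went from 236 to 1015 with DESeq2. With single libraries left out the number of members called ranged from 0 to 2 in Hif1α KO, 0 to 1 in Hif2α KO and 0 to 3 in DKO against KI. In DKO against KI, C2 missed the threshold with limma on both TPM scales (-0.53 on each) and C4b when only the groups compared were fitted (-1.52, adjusted p = 0.0744).

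For the complement list in Hif1α KO against KI, the genes that rose went from 1 to 4 with DESeq2, 2 with limma on log2(TPM + 0.1) and 0 with only the groups compared, and the genes that fell from 2 to 5 with DESeq2, 1 with no filter, 1 with the replicate block and 0 with only the groups compared. In Hif2α KO against KI, those that rose went from 0 to 3 with DESeq2 and 2 with limma on log2(TPM + 1), and those that fell from 1 to 0 with the replicate block, with both limma scales and with only the groups compared. In DKO against KI, those that rose went from 7 to 4 with the replicate block and to 4 with only the groups compared, and those that fell from 7 to 4 with limma on log2(TPM + 0.1). With a library left out, added after seeing the data, the genes that rose ranged from 1 to 2, 0 to 2 and 1 to 8 in the Hif1α KO, Hif2α KO and DKO comparisons, and those that fell from 1 to 4, 0 to 2 and 2 to 8. The cause was not tested.

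Libraries with the same replicate number are different mice. Of 31 same-numbered pairs of libraries, 3 had a correlation of deviations over 0.1 (from -0.22 to 0.25), and 3 of 17 libraries correlated best with one of their own number, so the number does not pair the samples. The replicate block left 1712 genes called in DKO against KI, in place of 2164, with the same 3 members. The counts of C4b summed with C4a were not run, since C4a was not analysed here. With 3 or 4 mice a group, the differences of C4b, C2 and Cfb between DKO and KI passed or missed the threshold with single libraries, and a p above the threshold does not show that values were alike.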
